A study of Saccharomyces cerevisiae BY4741 with 40 samples.

Results

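Cryptic unstable transcripts (CUTs) that start inside a protein-coding gene and run against it were examined through the transcription start site clusters (TSSCs) of a TSS sequencing experiment in budding yeast. A TSSC is a group of closely spaced 5′-ends. It was taken when it was annotated as a CUT start and its midpoint fell between the first and last position of an opposite-strand ORF. Only ORFs with an mRNA TSSC of their own were considered. These criteria gave 353 antisense CUT-TSSCs out of 1598 CUT-TSSCs and 17812 TSSCs in all. They belonged to 315 of the 1305 CUTs with a TSSC, lay opposite 300 ORFs, and were found on all 16 nuclear chromosomes. These criteria use class and position only, although a TSSC had to pass the authors' read and TAP filters to be in the table at all.

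CUTs are short, capped and polyadenylated RNA polymerase II transcripts that the cell makes and destroys almost at once. The RNA-binding proteins Nrd1 and Nab3 recognise short motifs in the nascent RNA and, with the helicase Sen1, end its transcription early, after which the TRAMP complex adds a short poly(A) tail and the nuclear exosome, with its catalytic subunit Rrp6, degrades it. A CUT that escapes to the cytoplasm and is translated can be degraded by nonsense-mediated mRNA decay (NMD), which needs the helicase Upf1 and acts on RNAs whose stop codon lies far from the 3′-end. Set2 is the histone methyltransferase that marks transcribed gene bodies with methylated H3K36 and keeps cryptic starts there closed. CUTs were catalogued in earlier work as RNAs that accumulate without Rrp6, so a higher value in *rrp6∆* is what defines the class and is given here as a description.

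All strains were BY4741 derivatives deleted for *CAN1*, grown in rich medium to mid-exponential phase. In the *RRP6* experiment, wild-type was set beside the single mutants *upf1∆* and *rrp6∆* and the double mutant *upf1∆rrp6∆*, with 3 libraries per genotype. In the *SET2* experiment it was set beside *upf1∆*, *set2∆* and the double mutant *upf1∆set2∆*, again with 3 libraries per genotype. Per the labels, *RRP6* was replaced by the hphMX6 cassette, *SET2* by KANMX6, and *UPF1* by KANMX6, or by HIS3MX6 in *upf1∆set2∆*, while the study's strain list gives HIS3MX6 also for strains that the labels mark KANMX6. All *upf1∆* libraries of both experiments came from 1 strain. Only poly(A)+ RNA was sequenced. The authors pooled the libraries of a genotype, leaving for every TSSC a single whole number of normalized reads in each strain. Without values per library, neither a test between genotypes nor an error of a value was computed here. Ratios are therefore described by how many TSSCs pass a 2-fold limit, up or down, on the log2(value + 1) scale, beside the corresponding percentage of all TSSCs. Where 4 values follow each other without further naming, they are those of wild-type, of the single mutants *upf1∆* and *rrp6∆*, and last of the double mutant. The 2 experiments were normalized separately, so levels are compared within one of them only. The values over all TSSCs summed to between 4276051 in *rrp6∆* and 4985459 in *upf1∆*. The mRNA TSSC of *RRP6* had a value of 86 in wild-type and of 2 in *rrp6∆*, and that of *SET2* had 40 in wild-type and 6 in *set2∆*. The mRNA TSSC of *UPF1* (listed as *NAM7*) had values of 220 in wild-type and 176 in *upf1∆* of the *RRP6* experiment, and of 111 and 165 in the *SET2* experiment. Whether this start lies within the deleted stretch is not given in the sources used here, so it was no check of that label.

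The sequence that follows these starts can be read for the short motifs of Nrd1 and Nab3. Each window has a fixed length, and that opposite *OPI3* runs past the annotated CUT end at position 572464. The first 200 nt after the TSSC are shown for the 3 members with the largest *rrp6∆* over wild-type ratio (among those with a mean of at least 20) and for the 2 with the lowest. Each is written 5′ to 3′ as the transcribed strand of the R64 genome, from the RefSeq sequence of that build, with Nrd1 motifs (GTAA, GTAG) and Nab3 motifs (TCTT, CTTG) in capitals. The CUT opposite *OPI3* is read from chrX:572372-572571 on the plus strand, that opposite *HAP5* from chrXV:1010530-1010729 on the minus strand and that opposite *CIN4* from chrXIII:545494-545693 on the minus strand. The CUTs with the lowest ratios are read from chrXV:315335-315534 on the plus strand, opposite *TOP1*, and from chrXVI:364052-364251 on the plus strand, opposite *AIM43*.
CUT_GIM_1006 opposite OPI3: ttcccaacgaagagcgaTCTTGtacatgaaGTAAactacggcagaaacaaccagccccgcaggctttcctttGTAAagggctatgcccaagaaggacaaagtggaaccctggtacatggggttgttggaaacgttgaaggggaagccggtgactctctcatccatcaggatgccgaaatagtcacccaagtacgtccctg
CUT_GIM_0656 opposite HAP5: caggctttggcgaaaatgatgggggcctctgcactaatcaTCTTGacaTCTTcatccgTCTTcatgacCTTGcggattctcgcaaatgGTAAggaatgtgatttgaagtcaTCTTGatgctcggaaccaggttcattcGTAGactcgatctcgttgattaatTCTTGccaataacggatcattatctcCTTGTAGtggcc
CUT_GIM_0945 opposite CIN4: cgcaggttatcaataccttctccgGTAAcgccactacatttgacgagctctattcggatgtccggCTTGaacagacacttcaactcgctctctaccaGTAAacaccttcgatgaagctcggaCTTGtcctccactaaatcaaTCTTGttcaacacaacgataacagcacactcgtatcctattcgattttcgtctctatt
CUT368 opposite TOP1: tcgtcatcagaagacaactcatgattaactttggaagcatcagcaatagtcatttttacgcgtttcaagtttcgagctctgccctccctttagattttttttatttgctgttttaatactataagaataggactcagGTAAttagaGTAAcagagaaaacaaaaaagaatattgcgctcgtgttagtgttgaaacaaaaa
CUT_GIM_0270 opposite AIM43: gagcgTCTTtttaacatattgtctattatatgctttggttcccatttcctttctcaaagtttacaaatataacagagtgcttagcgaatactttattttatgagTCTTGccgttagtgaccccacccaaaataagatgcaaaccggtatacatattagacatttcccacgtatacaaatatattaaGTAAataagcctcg

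The window opposite *HAP5* holds 3 Nrd1 and 10 Nab3 motifs, with 3 of its Nab3 motif runs reading TCTTG, in which both Nab3 motifs overlap. The window opposite *TOP1* holds 2 Nrd1 motifs and 0 Nab3 motifs. The TSSCs opposite *TOP1* and *AIM43* lie 0.04 and 0.06 of the way from start to stop codon. Most of each of these windows therefore lies outside the ORF, whereas the windows opposite *OPI3*, *HAP5* and *CIN4* lie within it. A large response did not require many motifs, since the window opposite *OPI3* holds only 2 Nrd1 and 2 Nab3 motifs, and the Nab3 pair is a single TCTTG.

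The antisense CUTs had low values in wild-type cells and higher ones where Rrp6 was missing. The median values were 1, 2, 15 and 26. A total of 133 of the 353 TSSCs (37.7%) were listed at 0 in wild-type, against 100 in the *upf1∆* strain, 15 where *RRP6* was deleted and 1 where both were. A value of at least 10 was reached by 35 TSSCs in wild-type and by 67, 201 and 252 in the mutants. Their summed values were 2163, 4185, 17438 and 29983 which is 0.0466%, 0.0839%, 0.408% and 0.619% of the value of all TSSCs. A few members dominated these sums, as the 10 highest held 30.7% of the double mutant total.

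**Figure D1:**
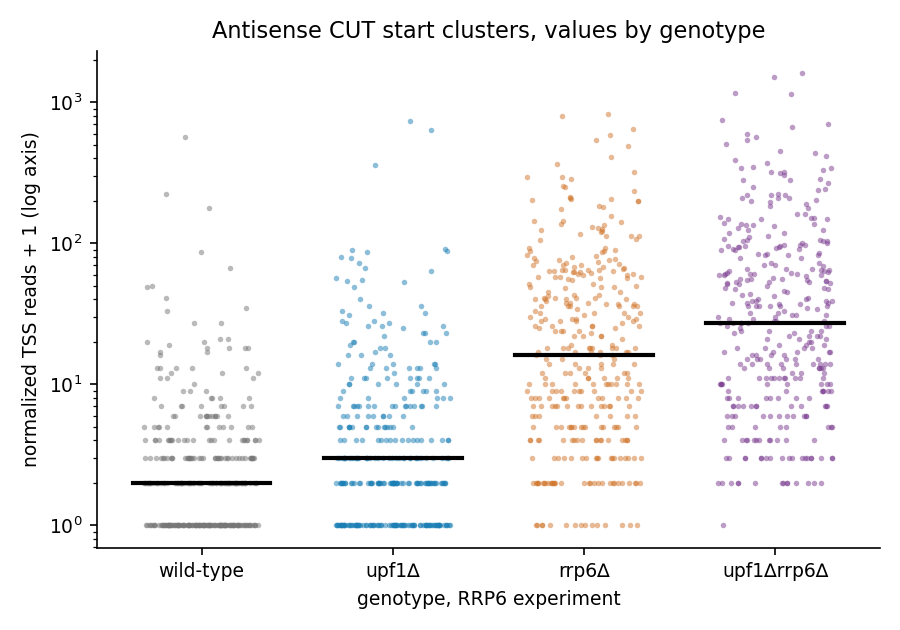
Normalized TSS reads plus 1 (log axis) of each of the 353 antisense CUT-TSSCs in the 4 genotypes of the *RRP6* experiment, 1 point per TSSC with horizontal scatter for legibility; black lines are medians. The medians are 1, 2, 15 and 26 before the 1 is added, and the highest points reach 562, 731, 825 and 1603.

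In *rrp6∆*, 274 of the 353 TSSCs (77.6%) were above wild-type by more than 2-fold, against 24.7% of all TSSCs, with a median log2 ratio of 2.81. Only 1 (0.283%) was more than 2-fold lower, against 3.13% of all TSSCs. A TSSC with a wild-type value of 1 or less cannot pass the lower limit on this scale. The median wild-type value was 1 for the members and 7 for all TSSCs, so shares lower are not read against the background. In *upf1∆*, 84 (23.8%) were higher, against 31.5% of all TSSCs, and 3 (0.85%) were lower, against 0.764%. The median log2 ratio in *upf1∆* was 0.0. In *upf1∆rrp6∆*, 322 (91.2%) were more than 2-fold above wild-type, against 52.3% of all TSSCs, with a median log2 ratio of 3.64. The double mutant was higher than *upf1∆* in 287 (81.3%), against 28.6%, and higher than *rrp6∆* in 107 (30.3%), against 34.8%. The *upf1∆* share depends on how low values are treated. It was 11.3% of the 353 with a pseudocount of 5, against 19.5% of all TSSCs. It was 54.9% among the 51 members whose mean of wild-type and *upf1∆* reached 10, against 31.0% of all such TSSCs. The *upf1∆* value enters that mean, so with low wild-type values the filter favours members high in *upf1∆*. Of the 9460 TSSCs that passed it, 5512 were mRNA TSSCs, with a share of 12.5%. The 54.9% is therefore not read as a place against the background. With a pseudocount of 5 the double mutant was higher than *rrp6∆* in 19.0%, against 22.3%.

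Antisense CUTs had shares closer to those of other CUTs than to those of other antisense transcripts. CUTs were catalogued as RNAs that accumulate without Rrp6, and a TSSC was assigned to CUTs before XUTs. The order of these classes in *rrp6∆* is therefore largely built in. Among the 1245 other CUT-TSSCs the shares above 2-fold were 26.8% in *upf1∆*, 80.2% in *rrp6∆* and 92.3% in the double mutant. The 487 TSSCs of Xrn1-sensitive unstable transcripts (XUTs, which are degraded in the cytoplasm) that lay antisense to ORFs had the opposite order, with 57.3% higher in *upf1∆* and 28.3% in *rrp6∆*. The 976 antisense TSSCs assigned to no annotated transcript were intermediate, at 35.2% and 37.5%. With a mean of at least 10, the *upf1∆* shares were 46.2% for other CUT-TSSCs and 75.1% for antisense XUT-TSSCs. For antisense TSSCs of no annotated transcript the share was then 77.2%, among the 101 of 976 that passed. The *upf1∆* value enters that mean, so the filter favours TSSCs high in *upf1∆*, above all in classes with low wild-type values. These filtered shares are therefore not compared between classes. With no replicate values, none of these differences between classes was tested.

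Sorted by the 2 single deletions, 215 members passed the 2-fold limit in *rrp6∆* only, 25 in *upf1∆* only, 59 in both and 54 in neither. Of the 54, 30 were nevertheless more than 2-fold higher in the double mutant. Of the 107 TSSCs more than 2-fold higher in the double mutant than in *rrp6∆*, 55 also passed the limit in *upf1∆* over wild-type and 52 did not. Among the 107, 4 TSSCs had values below 4 in wild-type and both single mutants and reached at least 10 in the double mutant. Had both deletions acted additively, the double mutant would equal *upf1∆* plus *rrp6∆* minus wild-type. The measured value lay above that sum by 0.526 at the median on the log2 scale, and was more than 2-fold above it in 66 TSSCs (18.7%) and more than 2-fold below it in 5. Over all TSSCs the median excess was 0.193 and 10.4% were more than 2-fold above. The share was 19.3% for other CUT-TSSCs (median 0.485), 18.5% for antisense XUT-TSSCs (median 0.341), 21.3% for antisense TSSCs of no annotated transcript (median 0.585) and 2.58% for mRNA TSSCs (median 0.115).

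The largest *rrp6∆* ratios were those of starts near the 3′-end of the gene opposite, all 5 at a relative position of at least 0.884 of the way from start to stop codon. The CUT opposite *OPI3*, which encodes a methyltransferase of phosphatidylcholine synthesis, starts at chrX:572298-572371 and had values of 2, 19, 251 and 568, a log2 ratio of 6.39 for *rrp6∆*. It was therefore high only where Rrp6 was missing, and highest where both were missing. The CUT opposite *CIN4*, a small GTPase gene of microtubule biogenesis, had values of 3, 8, 294 and 328 (log2 ratio 6.20 for *rrp6∆*), and loss of Upf1 added little to it. The CUT opposite *HAP5*, a subunit of the CCAAT-binding transcription factor, was listed at 0 in wild-type and *upf1∆* and at 74 and 83 in the strains without Rrp6. The CUT opposite *YNL193W* had values of 0, 2, 64 and 64. That opposite *PEP3*, a vacuolar sorting gene, had values of 0, 4, 60 and 92. All 5 stood at or below 3 in wild-type, which a ranking by ratio over wild-type favours. In 3 of them, opposite *CIN4*, *HAP5* and *YNL193W*, the value hardly differed between *rrp6∆* and the double mutant.

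Other members were also highest in the double mutant, some of them far above either single mutant. The CUT opposite *IBA57*, a mitochondrial iron-sulfur cluster maturation gene, starts at chrX:651223-651306 on the minus strand and had values of 17, 53, 411 and 1603, the last of them the highest value of any antisense CUT. That opposite *BUB3*, a spindle checkpoint gene, had values of 8, 22, 173 and 746, with an excess over additivity of 1.99 on the log2 scale. The CUT opposite *PDR8*, a drug resistance transcription factor gene, had values of 3, 12, 16 and 94, an excess of 1.87. Neither single deletion brought the last of these above 16. The CUT opposite *RIB2*, a riboflavin synthesis gene, had values of 2, 13, 133 and 249, and so followed the pattern of *OPI3*.

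Some antisense CUTs were higher in *upf1∆* than in *rrp6∆*. The CUT opposite *GAL2*, the galactose permease gene, had values of 5, 63, 9 and 97, a log2 ratio of 3.42 for *upf1∆* and of 0.74 for *rrp6∆*. The CUT opposite *GDH2*, the NAD-dependent glutamate dehydrogenase gene, had values of 11, 66, 44 and 371, with an excess over additivity of 1.90 on the log2 scale. In both, the *upf1∆* value was higher than the *rrp6∆* value and the double mutant was highest. The CUT opposite *THI73*, a putative permease gene, had values of 6, 35, 39 and 64, and that opposite *SWF1*, a palmitoyltransferase gene, had values of 19, 85, 361 and 592. The CUT opposite *VMA13*, a V-ATPase subunit gene, had values of 26, 90, 213 and 348. These 3 were higher in either single mutant than in wild-type.

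The first open reading frames of the 3 members with the largest *upf1∆* ratio are shown because NMD acts on the position of the stop codon. Each line runs 5′ to 3′ from the base after the TSSC to the stop codon of the first ATG, in the R64 genome, with ATG and stop in capitals, at chrXII:291674-291683 on the minus strand, chrIV:73627-73666 on the plus strand and chrXII:158071-158123 on the plus strand.
CUT_GIM_0849 opposite GAL2: aATGgggTGA
CUT050 opposite GDH2: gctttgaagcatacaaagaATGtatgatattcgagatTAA
CUT_GIM_0778 opposite THI73: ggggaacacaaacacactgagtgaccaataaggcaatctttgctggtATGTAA

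The frame opposite *GAL2* has 2 codons, that opposite *GDH2* has 6 and that opposite *THI73* has 1. From the stop codon to the annotated CUT end there are 11, 1118 and 14 nt, so a large *upf1∆* ratio was seen both with and without a long annotated 3′ part. Over the members, 296 had a first frame that closed inside the annotated CUT, 31 had an ATG without a stop inside it and 26 had no ATG. The 296 frames had a median of 14 codons and were followed by a median of 278 nt. Members more than 2-fold higher in the double mutant than in *rrp6∆* had a median of 430 nt after the stop (n = 93), and the rest had 229 nt (n = 203). For *upf1∆* over wild-type the medians were 421 nt (n = 69) and 256 nt (n = 227). The difference was concentrated at the top of the range: in 4 groups of 74 by *upf1∆rrp6∆* over *rrp6∆* ratio, the medians were 204, 264.5, 246 and 475.5 nt. In 4 groups of 74 by *upf1∆* over wild-type ratio, many of them tied at 0 on the log2 scale, they were 228.5, 285, 262 and 425 nt. The whole length from the TSSC to the annotated CUT end was also highest in the top group. Its medians were 325, 370.5, 351.5 and 606 nt in the first grouping and 330.5, 381.5, 389.5 and 491 nt in the second. Length after the stop and length of the annotated CUT thus cannot be told apart here. Across these 296 members the Spearman correlation with the length after the stop was 0.24 for the first ratio and 0.13 for the second. Other CUT-TSSCs had a median of 220 nt and antisense XUT-TSSCs of 470.5 nt.

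Of the 5 members with the highest wild-type values, 3 were also among the 5 with the lowest *rrp6∆* ratios (mean of at least 20). These were the members opposite *YGR283C*, *YNL046W* and *LAS21*. Wild-type is the denominator of the ratio, and a low ratio with that mean needs a high wild-type value, so the overlap is largely built in. The CUT opposite *YGR283C* had values of 562, 731, 825 and 1146. The CUT opposite *HMS2*, a gene with similarity to heat shock factors, had values of 221, 633, 644 and 1498, and that opposite *YNL046W* had values of 177, 358, 296 and 665. That opposite *HMS2* was more than 2-fold higher in *rrp6∆*. The CUT opposite *LAS21*, a gene of GPI anchor synthesis, had values of 86, 77, 140 and 207. The CUT opposite *COG8*, a Golgi transport gene, had values of 66, 79, 537 and 503, and was the one of the 5 highest in wild-type with a strong *rrp6∆* response. The lowest *rrp6∆* ratio among members with a mean of at least 20 was that opposite *TOP1*, the topoisomerase I gene, with values of 49, 88, 31 and 81, followed by that opposite *AIM43*, with 40, 72, 48 and 65.

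Several TSSCs of 1 CUT shared its transcript and are not independent. In all, 35 CUTs had more than 1 antisense TSSC, together 73 members with at most 3 per CUT, and the strongest TSSC held a median of 85.7% of their summed *rrp6∆* value. Values given for a named CUT are those of its strongest TSSC unless stated. Likewise 49 ORFs had more than 1 member opposite. The TSSCs were 52 nt wide at the median and 372 nt at the most, 38 consisted of a single position, and 173 lay within 50 nt of the annotated CUT start.

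The antisense CUT starts crowded at the 3′-end of the ORF they oppose. On a scale from 0 at the start codon to 1 at the stop codon, their median position was 0.908, and 184 (52.1%) lay in the final 10% of the ORF. The share in the final 10% was 19.1% for antisense XUT-TSSCs and 21.6% for antisense TSSCs of no annotated transcript, whose medians were 0.552 and 0.514. Of the 184, 119 had an mRNA TSSC on the other strand within 300 nt upstream, the arrangement of a divergent promoter. The limit of the ORF was no boundary in level: the 69 TSSCs inside the stop codon by at most 20 nt had a median log2 *rrp6∆* ratio of 3.66, and the 63 CUT-TSSCs outside by at most 20 nt had 3.46.

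**Figure D2:**
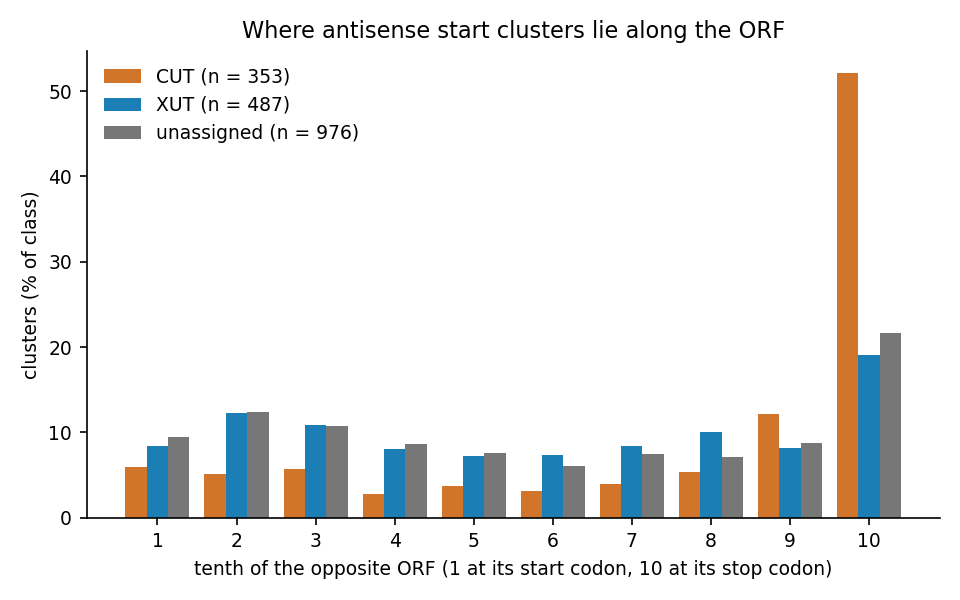
Share of TSSCs (% of each class) in 10 equal parts of the opposite ORF, from its start codon (1) to its stop codon (10), for antisense CUT-TSSCs, antisense XUT-TSSCs and antisense TSSCs of no annotated transcript. The last bar holds 52.1% of the antisense CUT-TSSCs, 19.1% of the XUT-TSSCs and 21.6% of the unassigned TSSCs.

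The response to Rrp6 followed this position. Of the 184 TSSCs in the final 10%, 90.8% were more than 2-fold higher in *rrp6∆*, with a median *rrp6∆* value of 28. The share was 71.6% for the 67 TSSCs between 0.667 and 0.9, 70.0% for the 40 between 0.333 and 0.667, and 31 of the 62 TSSCs below 0.333 were higher, with median *rrp6∆* values of 8, 6 and 6. The *upf1∆* shares varied less, at 22.3%, 25.4%, 22.5% and 27.4% in the same order. The 137 TSSCs with an mRNA TSSC within 300 nt upstream on the other strand included 93.4% that were higher in *rrp6∆*, and the 216 without included 67.6%. Position and a neighbouring promoter went together, so their parts cannot be told apart here.

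Nab3 motifs were frequent in the sequence after antisense CUT starts. The window has a fixed length and can run past the annotated CUT end, which opposite *VMA13* lies within the TSSC itself. A motif in the window is thus not always within the annotated CUT. In the 200 nt after the TSSC, 96.6% of the members had a Nab3 motif (TCTT or CTTG) on the transcribed strand and 85.0% had an Nrd1 motif (GTAA or GTAG). These short motifs are common, and 200-nt windows of all ORFs read antisense (n = 36179) held them at 93.5% and 79.8%. The 5-letter TCTTG, in which both Nab3 motifs overlap, separated the classes more. It was found in 59.2% of the members, 50.2% of other CUT-TSSCs, 43.0% of antisense TSSCs of no annotated transcript, 33.1% of antisense XUT-TSSCs, 13.4% of mRNA TSSCs and 42.2% of all ORF windows read antisense. The members' own windows read from the other strand, with the same GC content of 41.2%, had it in 15.3%. Reading the other strand exchanges A with T and C with G, so this share is no control for base composition. A Nab3 motif occurred 4.47 times per window in the members, against 3.67 in all ORF windows read antisense. A match is a description of the letters and not of a bound site.

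Members with more motifs were more often higher in *rrp6∆*. In the 118 TSSCs with the fewest Nrd1 and Nab3 motifs (0 to 5), 61.9% were more than 2-fold higher in *rrp6∆*, in the next 117 (5 to 7) 81.2% and in the 118 with the most (7 to 15) 89.8%, with median log2 ratios of 2.21, 2.81 and 3.36. The Spearman correlation over the 353 members was 0.31. The same order was seen within the final 10% of the ORF, at 81.6%, 90.6% and 97.2% (n = 49, 64 and 71), and before it, at 47.8%, 69.8% and 78.7% (n = 69, 53 and 47). Members with TCTTG were higher in *rrp6∆* in 86.6% of cases (n = 209) and members without it in 64.6% (n = 144).

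**Figure D3:**
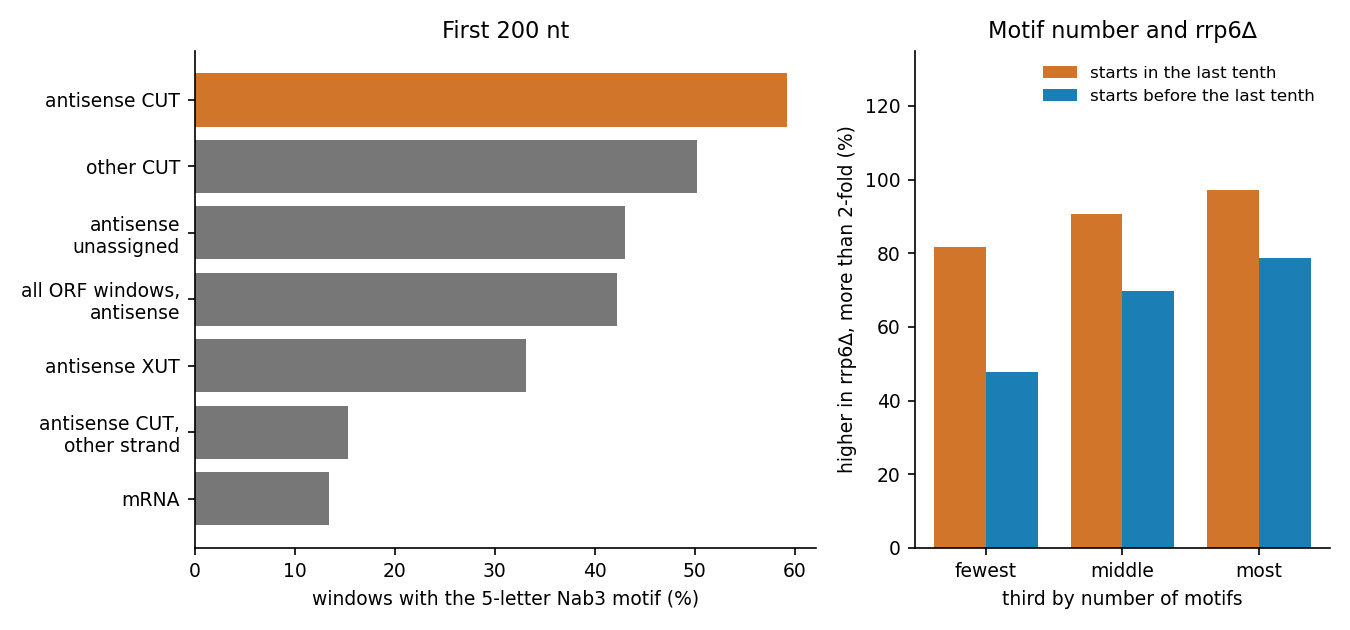
Left, share of 200-nt windows (%) that hold the 5-letter Nab3 motif TCTTG, for antisense CUT-TSSCs, other classes, all ORF windows read antisense, and the members' own windows read from the other strand. Right, share of antisense CUT-TSSCs (%) more than 2-fold higher in *rrp6∆* by number of Nrd1 and Nab3 motifs, for starts in the final 10% of the ORF and before it; the shares run from 81.6% to 97.2% and from 47.8% to 78.7%.

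The mRNAs opposite the CUTs mostly differed by less than 2-fold between genotypes. Among the 300 ORFs, the main mRNA TSSC was more than 2-fold higher in *rrp6∆* in 10 (3.33%, against 3.21% of all 5231 ORFs with an mRNA TSSC) and more than 2-fold lower in 13 (4.33%, against 2.49%), with a median log2 ratio of -0.0216. In *upf1∆*, 45 (15.0%, against 10.0%) were higher and 2 (0.667%, against 0.478%) lower. In *upf1∆rrp6∆*, 55 (18.3%, against 14.8%) were higher and 10 (3.33%, against 2.12%) lower. The *rrp6∆* ratios of the CUT and of the mRNA opposite had a Spearman correlation of 0.057 over the 353 members, which share ORFs in part. Among the 93 ORFs with antisense CUT-TSSCs that summed to at least 50 in *rrp6∆*, 6 mRNAs (6.45%) were more than 2-fold lower and 5 (5.38%) higher. Among the other 207, 7 (3.38%) were lower and 5 (2.42%) higher. For scale, the *upf1∆* over wild-type log2 ratios of 290 of these mRNAs, measured in both experiments, differed with an SD of 0.242. The *rrp6∆* ratios had no such repeat, so their own spread is not known.

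The balance of the strands differed between genotypes. The antisense CUT-TSSCs exceeded the mRNA TSSC in 12 of the 300 ORFs in wild-type and in 15, 63 and 66 in the mutants. They exceeded 10% of it in 43, 62, 170 and 184 ORFs. The median antisense level, in percent of the mRNA value, was 0.806, 1.27, 13.5 and 17.5. Only ORFs with an mRNA TSSC could be hosts, so genes without a detected mRNA start were left out by the criteria. The median wild-type mRNA value of the hosts was 124.5, against 162 over all ORFs with an mRNA TSSC. CUT and mRNA values in *rrp6∆* had a Spearman correlation of -0.044 across the 353 members.

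**Figure D4:**
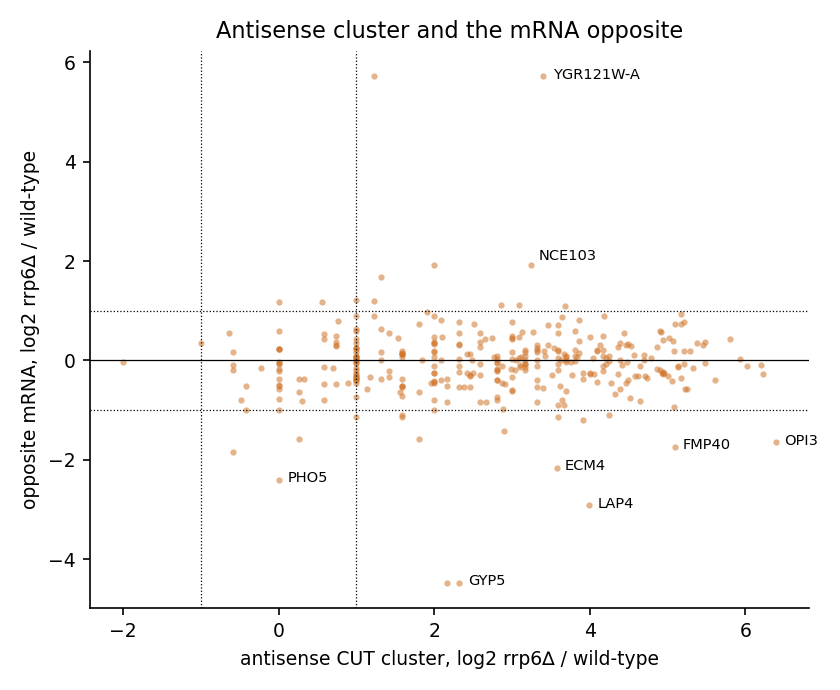
Log2 ratio of *rrp6∆* over wild-type of each antisense CUT-TSSC (horizontal) and of the main mRNA TSSC opposite (vertical), 1 point per TSSC, 353 in all; dotted lines mark 2-fold. Most points lie to the right of the limit and between the horizontal limits, where 10 of 300 mRNAs are higher and 13 lower; a few named genes lie outside.

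In a few genes the mRNA was far lower where the CUT was high. The *OPI3* mRNA TSSC had values of 665, 868, 212 and 300. That of *LAP4*, the vacuolar aminopeptidase I gene, had values of 1021, 854, 134 and 105, while its CUT had 19, 12, 318 and 282. In both genes the mRNA was lower in each strain without Rrp6 than in each strain with it, and the CUT was higher. The *FMP40* mRNA had values of 109, 103, 32 and 34 with CUT values of 16, 11, 581 and 535. The mRNA of *ECM4*, a glutathione transferase gene, had values of 124, 138, 27 and 32 with CUT values of 10, 10, 130 and 207. These 4 genes shared this pattern, and *OPI3* was among those with the largest CUT ratio, whereas the other 3 were named for their mRNA.

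The other mRNAs with the lowest *rrp6∆* ratios had weak CUTs opposite. The mRNA of *GYP5*, a Rab GTPase-activating protein gene, had values of 110, 107, 4 and 2 with CUT values of 1, 4, 8 and 31 in the named TSSC. The mRNA of *PHO5*, the repressible acid phosphatase gene, had values of 300, 108, 56 and 7, while its antisense CUT had values of 0, 6, 0 and 2. Here the mRNA was lower in all 3 mutants, and the CUT never exceeded 6 in the *RRP6* experiment. *PHO5* has a near-identical neighbour in *PHO3*, so its values are uncertain where reads of both could not be separated. In the *SET2* experiment the *PHO5* mRNA was likewise lower in *upf1∆* (91) than in wild-type (240). Its CUT had values there of 0 in wild-type, 7 in *upf1∆*, 1 in *set2∆* and 9 in *upf1∆set2∆*.

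The mRNAs with the highest *rrp6∆* ratios had CUTs of varied strength opposite. The TSSC assigned to *YGR121W-A* had values of 5, 5, 316 and 349, with values of 2, 2, 6 and 7 for the CUT616 TSSC, which starts 4 nt away on the other strand, and of 11, 19, 126 and 197 for a second CUT opposite. The mRNA of *NCE103*, the carbonic anhydrase gene, had values of 160, 437, 612 and 823, and the TSSCs of its CUT had 1, 1, 18 and 22 and 0, 0, 3 and 2. The CUT values opposite *YET2* (1, 1, 4 and 13), *TIM23* (0, 0, 1 and 1) and *YLR042C* (2, 12, 6 and 17) were low, where the mRNAs had *rrp6∆* values of 130, 203 and 84 and wild-type values of 40, 87 and 36. Among the strongly expressed CUTs, that opposite *YNL046W* had an mRNA opposite with values of 124, 1523, 160 and 1309, high in both strains without Upf1.

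Of all ORFs with an mRNA TSSC, 5.74% had a member opposite. Among listed genes with an mRNA TSSC the share was above this in every list but that of RNA surveillance. The lists are short, with 1 to 3 such genes each, and the difference was not tested. Of 22 phosphate response genes, all with an mRNA TSSC, 3 lay opposite a member. The CUT opposite *PHO4*, the transcription factor of the pathway, had values of 3, 12, 27 and 59, and that opposite *PHO85*, its cyclin-dependent kinase, 0, 0, 9 and 13. *PHO5* was the third and also the only one of 12 genes listed as regulated by antisense RNA, 7 of them with an mRNA TSSC. Of 28 genes of meiosis and sporulation, 11 had an mRNA TSSC and 3 a member opposite. All 3 members were more than 2-fold higher in *rrp6∆*, as were 77.6% of all members. The CUT opposite *MEI4*, a meiotic double-strand break gene, had values of 1, 4, 75 and 102, that opposite *SPR3*, a sporulation septin, 0, 1, 35 and 52, and that opposite *IME1*, the inducer of meiosis, 0, 2, 2 and 5. Opposite *MEI4* and *SPR3* the antisense RNA exceeded the mRNA of 3 and 4 in *rrp6∆*. Of 19 hexose transport genes, 10 of them with an mRNA TSSC, *GAL2* and *HXT4* (CUT values 1, 9, 7 and 12) had a member. Of 19 RNA surveillance genes, 18 of them with an mRNA TSSC, *TRF5*, a poly(A) polymerase of the TRAMP complex, had one, with values of 0, 1, 38 and 43.

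The *SET2* experiment repeated the *upf1∆* to wild-type comparison with other libraries of the same *upf1∆* strain. There, 131 members shared 1 nt or more with a TSSC of the same direction. These were 129 different TSSCs, and 126 of the 131 members matched one annotated as a CUT. The other 222 members had no partner, and their medians were 0 in wild-type and 9.5 in *rrp6∆*. That experiment had no *rrp6∆* strain, so a member entered it only with reads in strains with Rrp6. Its paired members were more often higher in *upf1∆* already in the *RRP6* experiment, at 46.6%, against 10.4% of the unpaired, so shares among them do not stand for all members. Of the 131, 61 were more than 2-fold higher in *upf1∆* in the *RRP6* experiment and 55 in the *SET2* experiment, and 48 in both (78.7% of the first and 87.3% of the second). None (0) was more than 2-fold higher in one and lower in the other. Only 3 of the 353 members were lower in the *RRP6* experiment and 1 of the 129 TSSCs in the *SET2* experiment. That count therefore says little about agreement. The SD of the difference between both log2 ratios was 0.54, and 0.308 for the 34 members with a mean of at least 10 in both. The CUT opposite *GAL2* had values of 5 and 53 in wild-type and *upf1∆* of the *SET2* experiment, and that opposite *GDH2* 7 and 47.

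**Figure D5:**
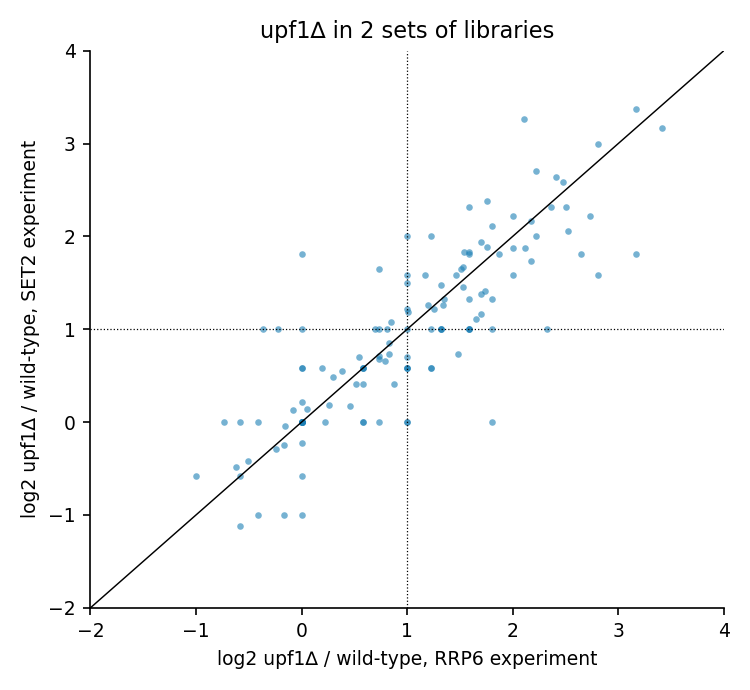
Log2 ratio of *upf1∆* over wild-type in the *RRP6* experiment (horizontal) and in the *SET2* experiment (vertical) for the 131 members found in both, 1 point per member; the solid line is equality and dotted lines mark 2-fold. Of the 131 points, 48 lie above 2-fold in both, and the SD of the difference is 0.54.

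In *set2∆* the share of antisense CUTs above the 2-fold limit was near that of all TSSCs. Of the 129 TSSCs, 36 (27.9%) were more than 2-fold higher in *set2∆*, against 27.7% of all TSSCs in that experiment, and 0 were more than 2-fold lower, against 1.33%. In *upf1∆*, 41.1% were higher (26.9% of all), in *upf1∆set2∆* 58.1% (56.2% of all), and on loss of Upf1 from *set2∆* 36.4% (36.9% of all). With a pseudocount of 5 these shares were 8.53% in *set2∆* (13.8% of all), 23.3% in *upf1∆* (15.0% of all), 34.1% in *upf1∆set2∆* (36.8% of all) and 22.5% for *upf1∆set2∆* over *set2∆* (21.3% of all). The *upf1∆* share was 63.6% among the 33 TSSCs with a mean of at least 10, against 30.3% of all such TSSCs. Here too the *upf1∆* value enters the mean, so the filter favours TSSCs high in *upf1∆*. The median values were 2 in wild-type and 4 in *set2∆*. A wild-type value of 1 or less cannot pass the lower limit, so the share lower in *set2∆* is not read against that of all TSSCs. Among the 131 pairs, the share higher in *set2∆* was 25 of 72 (34.7%) in the final 10% of the ORF, 6 of 17 (35.3%) between 0.667 and 0.9, 4 of 13 (30.8%) between 0.333 and 0.667, and 1 of 29 (3.45%) below 0.333. The CUT opposite *VMA13* had values of 23 in wild-type, 88 in *upf1∆*, 74 in *set2∆* and 187 in *upf1∆set2∆*. That opposite *PDX1*, a pyruvate dehydrogenase complex gene, had values of 13, 11, 40 and 34, and its values in the *RRP6* experiment were 17, 17, 804 and 1161. The CUT opposite *COG8* had values of 59, 67, 169 and 113 in the *SET2* experiment. All 3 were higher in *set2∆* than in wild-type, and those opposite *PDX1* and *COG8* were lower in *upf1∆set2∆* than in *set2∆*.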

How the data were processed

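TSSs were sequenced from poly(A)+ RNA in 12 libraries of the *RRP6* experiment and 12 of the *SET2* experiment. The other 16 of the 40 samples, made with or without TAP or for RNAseq, were not analysed here. TAP removes the cap, so that the following ligation selects 5′-ends of capped RNAs. The authors aligned reads with Bowtie2 to R64, removed duplicates by a random tag, grouped neighbouring TSSs into TSSCs, filtered these by the signal over libraries without TAP and by the bases at the start, and normalized with DESeq2 to reads upstream of ORF start codons. The deposited score values are these normalized reads as whole numbers, pooled by the authors over the 3 libraries of a genotype; that they are means was inferred. Fold changes and p-values of the authors' own comparisons are in the same 2 tables and were not used. No column of single samples was left unused. When a TSSC fitted several classes, the authors chose CUT first, then XUT, then SUT, so some members may also be XUTs.

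Members, gene lists and measures were chosen with earlier results of these data known. Ratios used a pseudocount of 1. Named members were those with the 5 largest ratios over wild-type in *upf1∆*, *rrp6∆* and *upf1∆rrp6∆*, the 5 highest in wild-type, the 5 lowest and the 3 largest ratios in *rrp6∆* and *set2∆*, respectively, the 3 with the largest excess over additivity, those opposite a listed gene, and those whose mRNA opposite had the 5 lowest or highest *rrp6∆* ratios, with a mean of at least 20 for ratios. The lists held genes known to be regulated by antisense RNA and genes of phosphate response, meiosis and sporulation, hexose transport and RNA surveillance. Sequences were read from the RefSeq R64 genome, the build of the tables, where 5206 of 5231 ORFs begin with ATG at the annotated start. The first ATG was sought after the last position of the TSSC. Motifs were counted on the transcribed strand with overlaps allowed. The script was tested on simulated data. Python 3.11.15, numpy 2.4.6 and pandas 2.3.3 were used. Alternatives were pseudocounts of 0.1 and 5, a mean of at least 10, TSSCs wholly inside the ORF, scaling to the mRNA median, a stricter overlap between experiments, other windows and other start positions.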

Additional observations from a re-analysis of the deposited data

How the results depend on the processing

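No paired analysis was possible because the deposited values are pooled over the libraries of a genotype, and for the same reason no library could be left out in turn. In all, 45 alternatives left a result within the 95% interval of its main value and 36 moved it outside. These intervals count the members as if independent and hold no spread between libraries, so they only sort the shifts by size. The *upf1∆* share was below that of all TSSCs in the main setting (23.8 against 31.5) and above it with a mean of at least 10 (54.9 against 31.0). The second setting favours members high in *upf1∆*, since that value enters the mean. Shares more than 2-fold higher are in percent, in the order *upf1∆*, *rrp6∆* and *upf1∆rrp6∆* over wild-type, the double mutant over *rrp6∆* and over *upf1∆*. They were 35.4, 86.7, 96.6, 36.8 and 85.6 with a pseudocount of 0.1, and 11.3, 61.5, 76.2, 19.0 and 67.7 with 5. With a mean of at least 10, those over wild-type were 54.9, 95.1 and 97.5, and the double mutant over *upf1∆* was 88.2. For TSSCs wholly inside the ORF, *rrp6∆* over wild-type was 70.7 and the double mutant over *upf1∆* 76.1. Scaled to the mRNA median, the double mutant over *rrp6∆* was 25.2. In the *SET2* experiment the order is *upf1∆*, *set2∆* and *upf1∆set2∆* over wild-type, then the double mutant over *set2∆*: 53.5, 40.3, 70.5 and 45.7 with a pseudocount of 0.1, and 23.3, 8.53, 34.1 and 22.5 with 5. With a mean of at least 10, *upf1∆* was 63.6, *upf1∆set2∆* 75.6 and the double mutant over *set2∆* 49.1, and with an overlap of at least 0.5 of both TSSCs *upf1∆* was 57.1. The excess over additivity was 0.415 with a pseudocount of 5. Nrd1 and Nab3 motif shares were 59.8 and 84.4 in 100 nt and 94.9 and 99.7 in 300 nt. The length after the stop was 395.0 nt when read from the annotated CUT start, and the position was 0.938 at the first base of the TSSC. The causes of these shifts were not tested. Low values limit precision: with 133 members at 0 in wild-type, many ratios rest on a few reads.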
